A study of Homo sapiens with 6 samples.

Results

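The 56 genes described here build and control the DNA replication fork. They comprise the subunits of the origin recognition complex, the licensing factors, the replicative helicase and its activators, the replicative polymerases, the sliding clamp with its loader, fork protection factors, and S-phase regulators with chromatin-copying enzymes. Members were taken from a list of gene symbols, and each matched exactly 1 of the 67140 Ensembl gene identifiers in the count table. All 56 were abundant enough to be tested, with mean levels from 5.38 to 208.9 CPM (estimated counts scaled to a common library size) and no fewer than 128 estimated counts in any library. None therefore passed the low-count filter only through the group in which it was higher.

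The libraries came from cells labelled CAPAN-2, an established human pancreatic cancer line. The series compares 3 libraries of control cells without SIRT4 overexpression (ctrl) with 3 labelled as overexpressing SIRT4, a mitochondrial sirtuin, and called SIRT4 libraries here after that label. The labels name no vector, clone or duration of overexpression. They do not give the cultures behind the replicates, and the p-values then cover the spread among these 6 libraries alone, which may be technical. Adjusted p-values are those of edgeR's quasi-likelihood fit to all tested genes with Benjamini-Hochberg correction, given here as edgeR adjusted p, and a gene is said to have risen or fallen where this value was under 0.05.

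SIRT4 itself was at 2.47, 1.96 and 1.83 CPM in ctrl replicates 1 to 3 and at 3.31, 2.80 and 3.60 CPM in the SIRT4 libraries. The groups did not overlap, but the log2 fold change of 0.63 (SE 0.21) had an edgeR adjusted p of 0.0752 and did not pass. With DESeq2 the adjusted p was 0.0392, and over all 14 alternatives it ran from 0.0392 to 0.200. The labelled overexpression thus appeared at the transcript only as a 1.55-fold difference that missed the threshold in edgeR, and the mean level of SIRT4 over all libraries, 2.66 CPM, was below that of every member. Of 12 ductal epithelial markers, the keratins KRT8, KRT18 and KRT19, CDH1, EPCAM and SOX9 were abundant. CEACAM6 and TFF1 reached at most 0.692 and 0.433 CPM, and GATA6 lay between 1.45 and 3.21 CPM. Of 7 genes listed for HEK293T-type cells, a human embryonic kidney line, PAX2 was at 37.6 to 63.7 CPM and LIN28B at 12.6 to 17.2 CPM, and this pair made up most of the list's sum. SALL4 was at 2.58 to 4.15 CPM and SOX2 at 0.155 to 1.57 CPM, while NEFM, NEFL and HOXD10 reached at most 0.214, 0.0776 and 0.363 CPM and were not tested. The summed level of that list was 58.1 to 65.6 CPM in ctrl and 80.9 to 83.9 CPM in SIRT4 libraries. Of its 4 tested genes 2 were higher, PAX2 and the scarce SOX2. Beside this and the following marker counts, 9.38% of all tested genes were higher and 7.67% were lower. The ductal list summed to 2418.9 to 2539.6 CPM in ctrl and 4509.5 to 4653.8 CPM in SIRT4 libraries. Of its 11 tested genes 3 were higher (KRT8, KRT18 and KRT19) and 1, SOX9, was lower. The nuclear-retained RNA list summed to 1749.5 to 2317.8 CPM in ctrl and 1319.0 to 1492.6 CPM in SIRT4 libraries, and 2 of its 7 genes, MEG3 and OIP5-AS1, were lower. NEAT1, at 426.6 to 934.8 CPM in ctrl and 185.0 to 442.2 CPM in SIRT4 libraries, weighed on this sum but overlapped and did not pass. MALAT1, KCNQ1OT1, TUG1 and NORAD did not pass either. Of 7 leukocyte markers 3 were tested and CD68 was lower (summed level 62.6 to 92.0 CPM in ctrl and 38.3 to 49.0 CPM in SIRT4 libraries), with CD3E at 0. No fibroblast marker passed among 5 tested of 10 (185.1 to 203.5 and 189.7 to 195.7 CPM). COL1A1, at 166.0 to 181.3 CPM over the 6 libraries, made up most of that sum. THY1 was at 8.26 to 14.1 CPM and COL3A1 at 4.44 to 7.86 CPM, while COL1A2, DCN and FAP were at 0. The endothelial list stayed at or below 1.44 CPM. The low CEACAM6 and TFF1 and the PAX2 and LIN28B transcripts in all 6 libraries put the CAPAN-2 label in doubt, the keratins notwithstanding, and the line's identity was not settled by these values. What part these markers have in the replication results was not tested. The header of the column for SIRT4 replicate 2 ends in a different letter from those of the other 5 columns, with no stated meaning.

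Before S phase, the origin recognition complex with CDC6 and CDT1 loads the MCM2-7 helicase ring onto DNA, a step called licensing, and geminin blocks CDT1 once S phase has begun. The CDC7-DBF4 kinase and cyclin-dependent kinases then recruit CDC45 and GINS, which turn the ring into the active helicase, and the polymerases follow on a clamp of PCNA. Many of these genes are transcribed at the boundary of G1 and S phase under the E2F transcription factors, which the retinoblastoma protein restrains. Loss of CDKN2A, an inhibitor of the kinases that inactivate the retinoblastoma protein, is common in pancreatic cancer, and these transcripts are widely read as a sign of cycling cells.

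Transcripts of the replication machinery were higher in the SIRT4 libraries across most complexes. Of the 56 members 38 rose and none fell, whereas 9.38% of the 20786 tested genes were higher and 7.67% were lower by the same test. Both background counts shrank when 1 library was left out. Higher genes numbered 1312 to 1570, against 1950 of 20786 with all libraries. Lower genes were fewest at 978 of 21692 tested genes with ctrl replicate 3 omitted. They numbered 1021 of 21838 and 1058 of 21736 with SIRT4 replicate 2 or 3 omitted, against 1595 of 20786 with all libraries. None of the 3 tests run, edgeR, DESeq2 and limma-voom, called a member lower, and at an unadjusted p under 0.05 edgeR called 0 lower. The median log2 fold change of the members was 0.50, with quartiles of 0.26 and 0.80, against -0.02 for all tested genes, with quartiles of -0.31 and 0.23. The 3 SIRT4 values lay above all 3 ctrl values for 49 members, 11 of them among the 18 that did not pass; this separation held for 18.6% of all tested genes. A log2 fold change of at least 0.9 together with a pass was seen for 11 members and for 0.981% of all tested genes. Summed over the members, the level was 2009.9, 2019.1 and 2080.8 CPM in ctrl replicates 1 to 3 and 2937.3, 2994.1 and 3015.8 CPM in SIRT4 replicates 1 to 3. In such bulk libraries a larger share of cells in S phase and more RNA of these genes per cell cannot be told apart.

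**Figure D1:**
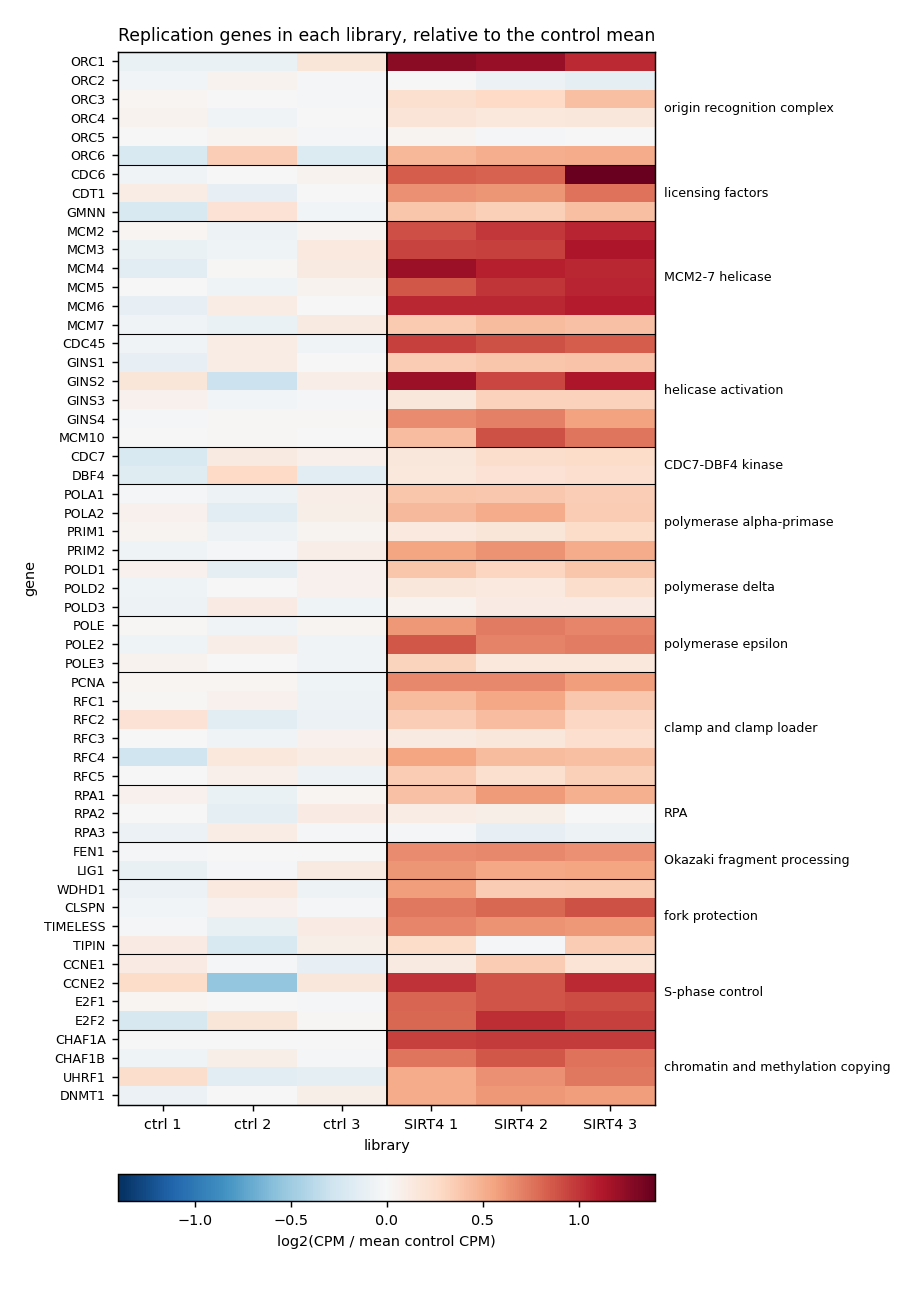
Level of each of the 56 replication genes in each library as log2 of its CPM over the mean control CPM, with rows grouped by complex and the 3 ctrl libraries left of the line. The 3 SIRT4 columns are red in most rows and near white for ORC2, ORC5, RPA2 and RPA3, and no SIRT4 column stands apart from the other two over the whole list.

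The upstream sequence of these genes was read from RefSeq windows on GRCh38.p14, each covering 250 bases before to 50 bases after a transcription start. Windows were found for 49 of the 56 members, and CCNE2, GINS4, MCM4, MCM5, POLD3, RPA2 and RPA3 had none in the table used. The E2F words searched were TTTCCCGC, TTTCGCGC, TTTGCCGC and TTTGGCGC on either strand, where words on opposite strands may overlap each other. Such a word stood in at least 1 window of 25 of the 49 members (51.0%) and of 807 of 12871 tested genes with a window (6.27%), and in 3.31% of all 35116 windows of that length. Members with a word had a median log2 fold change of 0.64 (20 of 25 higher), and members without one had 0.45 (14 of 24 higher). A match is a description of the letters and not a measured binding site. The windows of 5 members that rose and of ORC2, which did not pass, are shown 5′ to 3′ in the direction of transcription, with E2F words in capitals.
MCM2 (chr3:127598161-127598460, plus strand): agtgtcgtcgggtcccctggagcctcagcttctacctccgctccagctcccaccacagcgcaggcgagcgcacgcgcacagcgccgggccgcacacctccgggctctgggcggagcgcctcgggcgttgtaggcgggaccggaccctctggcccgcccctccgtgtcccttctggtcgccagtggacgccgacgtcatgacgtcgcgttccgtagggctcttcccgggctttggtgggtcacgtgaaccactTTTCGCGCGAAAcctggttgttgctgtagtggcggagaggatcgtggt
MCM6 (chr2:135876394-135876693, minus strand): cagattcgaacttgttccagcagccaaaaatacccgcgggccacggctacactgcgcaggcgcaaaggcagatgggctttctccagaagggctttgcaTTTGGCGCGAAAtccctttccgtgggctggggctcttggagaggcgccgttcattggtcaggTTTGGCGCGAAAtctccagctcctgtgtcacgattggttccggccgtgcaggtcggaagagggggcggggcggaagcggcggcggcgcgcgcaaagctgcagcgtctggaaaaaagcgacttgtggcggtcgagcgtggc
CDC6 (chr17:40287629-40287928, plus strand): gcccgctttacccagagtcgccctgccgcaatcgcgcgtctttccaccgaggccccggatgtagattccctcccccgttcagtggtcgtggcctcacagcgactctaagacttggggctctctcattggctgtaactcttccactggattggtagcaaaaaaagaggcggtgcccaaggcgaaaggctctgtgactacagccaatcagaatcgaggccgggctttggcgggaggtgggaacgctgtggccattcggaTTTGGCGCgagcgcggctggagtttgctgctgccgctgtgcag
E2F1 (chr20:33686336-33686635, minus strand): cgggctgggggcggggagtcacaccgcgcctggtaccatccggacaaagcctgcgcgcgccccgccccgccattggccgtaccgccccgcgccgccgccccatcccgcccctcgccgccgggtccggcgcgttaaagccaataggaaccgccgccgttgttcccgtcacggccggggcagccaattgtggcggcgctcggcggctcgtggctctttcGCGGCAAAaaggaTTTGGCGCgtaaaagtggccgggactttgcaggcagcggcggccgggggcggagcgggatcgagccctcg
PCNA (chr20:5126573-5126872, minus strand): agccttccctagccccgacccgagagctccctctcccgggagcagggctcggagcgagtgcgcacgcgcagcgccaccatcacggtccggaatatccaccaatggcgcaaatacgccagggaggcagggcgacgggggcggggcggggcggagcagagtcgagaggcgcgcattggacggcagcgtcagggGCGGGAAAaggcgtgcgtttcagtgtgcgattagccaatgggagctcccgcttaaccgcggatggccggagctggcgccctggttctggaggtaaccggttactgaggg
ORC2 (chr2:200963611-200963910, minus strand): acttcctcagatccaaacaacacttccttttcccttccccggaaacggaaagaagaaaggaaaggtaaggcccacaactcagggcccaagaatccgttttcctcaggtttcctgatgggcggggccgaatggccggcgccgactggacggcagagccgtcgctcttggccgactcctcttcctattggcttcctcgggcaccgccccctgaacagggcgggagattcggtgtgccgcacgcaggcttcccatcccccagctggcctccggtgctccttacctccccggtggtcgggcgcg

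In the MCM2 window a pair of words on opposite strands overlaps into 1 run of capitals just after the start site, and the MCM6 window holds 2 such runs, farther upstream. The ORC2 window has none. Over all member windows, 22 of the 35 sites (62.9%) began between 60 bases before and 50 bases after the start, compared with 35.0% of the 1219 sites in all windows. The following stretches of at most 28 bases show single sites, in capitals with 10 bases on each side, from 6 members that rose (MCM3, CDT1, GINS2, POLE, CLSPN and DNMT1) and 2 that did not pass (TIPIN and RFC3). The TIPIN stretch also holds an overlapping word on the other strand, left in lower case.
MCM3 (chr6:52284729-52284756, minus strand): gttcggaagtTTTCGCGCcggggtggag
CDT1 (chr16:88803744-88803771, plus strand): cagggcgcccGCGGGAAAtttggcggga
GINS2 (chr16:85688968-85688995, minus strand): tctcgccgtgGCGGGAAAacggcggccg
POLE (chr12:132687343-132687370, minus strand): gggtgggagcGCGCCAAAtttctcccct
CLSPN (chr1:35769966-35769993, minus strand): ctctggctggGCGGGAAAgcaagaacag
DNMT1 (chr19:10194938-10194965, minus strand): atcggtttccGCGCGAAAagccggggcg
TIPIN (chr15:66356730-66356757, minus strand): cacggatttgGCGCCAAAcgctgcgggc
RFC3 (chr13:33818084-33818111, plus strand): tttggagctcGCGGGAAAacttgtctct

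The word was thus present in genes on both sides of the threshold, and ORC1, CDC45 and CHAF1A rose with no such word in their windows. Words linked to later cell cycle genes were searched as well. The CHR words TTTGAA and TTCGAA, the latter its own reverse complement, occurred in 3 of 49 members (6.12%), in 11 of 16 genes of the G2 and M phase list with a window (68.8%) and in 15.2% of tested genes. The NF-Y word CCAAT occurred in 55.1% of the members, 87.5% of the G2 and M phase list and 41.8% of tested genes. Conversely, 12.5% of the G2 and M phase list held an E2F word. Members with CCAAT had a median log2 fold change of 0.64 (21 of 27 higher), and members without it had 0.44 (13 of 22 higher). The split by fold change was thus much the same for CCAAT as for the E2F words. These shares and medians were not tested.

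**Figure D2:**
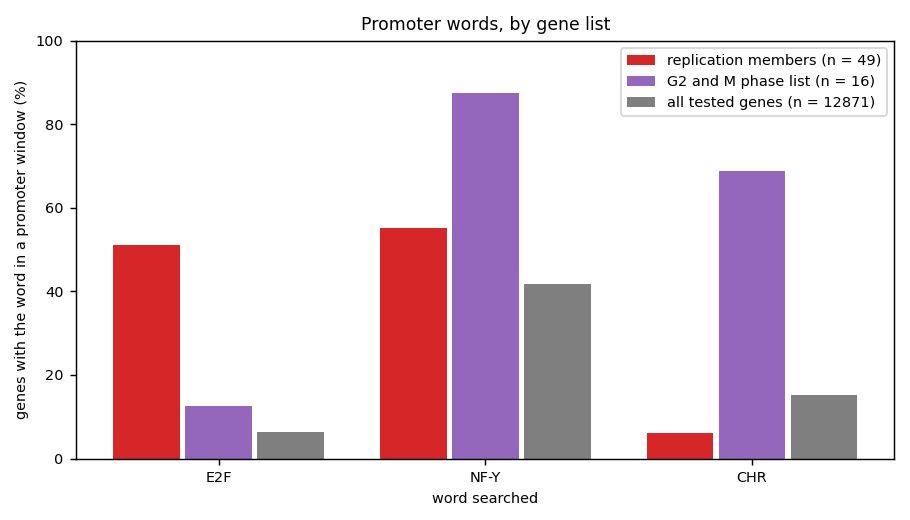
Share of genes, in percent, with each word in at least 1 promoter window, for the 49 replication members with a window, 16 genes of the G2 and M phase list and 12871 tested genes. The E2F bar of the members stands at 51.0% against 6.27% for tested genes, while the CHR bar is tallest for the G2 and M phase list at 68.8%.

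Among the 6 subunits of the origin recognition complex, which marks where replication may begin, ORC1 and ORC3 rose and ORC1 had the largest change. Its level was 7.04, 7.06 and 8.46 CPM in ctrl replicates 1 to 3 and 18.0, 17.5 and 15.5 CPM in SIRT4 replicates 1 to 3, so the groups lay well apart. It rose 2.26-fold (log2 fold change 1.17, SE 0.12, edgeR adjusted p = 0.000635), the largest log2 fold change of the 56 members. ORC1 is the subunit that human cells degrade and remake in each cycle. ORC3 was at 36.8, 35.9 and 35.4 CPM in ctrl and 42.1, 43.8 and 48.2 CPM in SIRT4 libraries, a log2 fold change of 0.31. That call was narrow, since its edgeR adjusted p of 0.0223 became 0.0507, 0.0565 and 0.0693 without ctrl replicate 1, 2 or 3, and 0.0554 and 0.0621 without SIRT4 replicate 2 or 3. ORC5 was at 23.2, 24.0 and 22.8 CPM in ctrl and 24.0, 22.8 and 23.2 CPM in SIRT4 libraries, and the groups overlapped fully. ORC2 (-0.07) and ORC4 (0.16) did not pass either. ORC6 was at 14.2, 20.9 and 14.4 CPM in ctrl and 22.8 to 23.7 CPM in SIRT4 libraries, with ctrl replicate 2 high. Its edgeR adjusted p of 0.0609 became 0.00429 without that library, but lay between 0.115 and 0.169 when any other library was left out. With all libraries ORC6 had an adjusted p of 0.0135 with DESeq2, 0.0466 with limma-voom and 0.0415 with edgeR without a filter. It passed in 4 of the 14 alternatives. Per kilobase of principal transcript, the ratio of ORC1 to the mean of ORC2, ORC3, ORC4 and ORC5 was 0.192, 0.189 and 0.234 in ctrl and 0.455, 0.451 and 0.388 in SIRT4 libraries.

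Both proteins that load the helicase beside this complex had higher transcripts. CDC6, the ATPase that joins the origin recognition complex, was at 16.1, 16.8 and 17.3 CPM in ctrl and 30.0, 29.6 and 43.5 CPM in SIRT4 libraries. SIRT4 replicate 3 stood above the other two, yet all 3 were above the ctrl values, and CDC6 rose 2.06-fold (log2 fold change 1.04, SE 0.15, edgeR adjusted p = 0.00356). CDT1, which delivers the MCM ring, was at 25.1, 21.6 and 23.5 CPM in ctrl and 36.4, 35.8 and 39.6 CPM in SIRT4 libraries, a rise of 0.67 on the log2 scale. GMNN encodes geminin, the inhibitor of CDT1. It was at 14.0, 18.7 and 15.8 CPM in ctrl and 21.2, 20.4 and 21.7 CPM in SIRT4 libraries, without overlap. Its log2 fold change of 0.39 (SE 0.12) had an edgeR adjusted p of 0.0606 and did not pass. The edgeR adjusted p was 0.0247 without ctrl replicate 2, but 0.111 to 0.147 when any other library was left out. With all libraries the adjusted p of GMNN was 0.0182 with DESeq2 and 0.0492 with edgeR without a filter. It passed in 3 of the 14 alternatives. The ratio of CDT1 to GMNN per kilobase of transcript was 0.701, 0.450 and 0.578 in ctrl and 0.668, 0.684 and 0.710 in SIRT4 libraries, so the groups overlapped in this ratio.

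All 6 subunits of the MCM2-7 ring rose, and 5 of them about doubled in a narrow range of log2 fold change from 0.98 to 1.11. The summed level of the ring was 424.6, 427.5 and 471.8 CPM in ctrl and 752.3, 772.5 and 793.2 CPM in SIRT4 libraries. MCM2 was at 57.9, 54.0 and 58.1 CPM in ctrl and 105.8, 113.0 and 118.6 CPM in SIRT4 libraries (log2 fold change 0.99, SE 0.06, edgeR adjusted p = 6.45e-05). MCM6 was at 41.2, 48.1 and 44.5 CPM in ctrl and 92.4, 92.4 and 95.4 CPM in SIRT4 libraries, a rise of 1.07 on the log2 scale. No SIRT4 value of either gene came near a ctrl value. MCM3, MCM4 and MCM5 rose by 1.01, 1.11 and 0.98 on the log2 scale. MCM7, whose introns carry a microRNA cluster, had the smallest fold change of the 6. It was at 174.0, 168.8 and 196.2 CPM in ctrl and 231.9, 244.3 and 238.3 CPM in SIRT4 libraries, a rise of 0.41 (SE 0.06) on the log2 scale. Per kilobase of principal transcript MCM7 was the most abundant subunit in both groups, at 60.8 CPM per kilobase in ctrl and 80.5 in SIRT4 libraries, against 11.6 to 20.4 and 25.0 to 41.2 for the other 5. The ratio of MCM7 to the mean of the other 5 was 4.22, 3.98 and 4.33 in ctrl and 2.73, 2.82 and 2.61 in SIRT4 libraries. The transcripts of the ring were thus closer to equal in the SIRT4 libraries on this scale, which depends on the transcript length assumed.

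**Figure D3:**
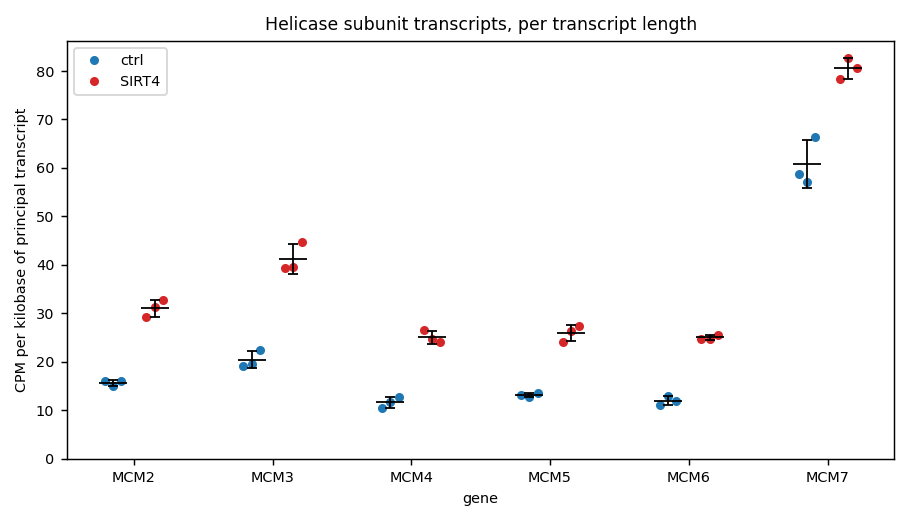
Level of each MCM2-7 transcript in CPM per kilobase of principal transcript, with 1 point per library (blue ctrl, red SIRT4) and bars for the mean and SD of 3 libraries. The groups are apart for all 6 subunits, and MCM7 lies above the other 5 in both groups.

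Helicase activation factors rose in 5 of 6 cases. CDC45, which completes the active helicase, was at 11.3, 12.6 and 11.3 CPM in ctrl and 22.7, 21.7 and 21.0 CPM in SIRT4 libraries, a 1.86-fold rise (log2 fold change 0.89, SE 0.09). The 4 GINS genes encode subunits of a partner complex of CDC45, and 3 of them passed. GINS2 rose by 1.09 on the log2 scale, GINS4 by 0.65 and GINS1 by 0.38. GINS4 was at 10.3, 10.5 and 10.5 CPM in ctrl and 16.5, 17.0 and 15.4 CPM in SIRT4 libraries. GINS3 was at 7.60, 7.10 and 7.17 CPM in ctrl and 8.12, 9.14 and 9.15 CPM in SIRT4 libraries; its groups did not overlap, but the log2 fold change of 0.27 had an edgeR adjusted p of 0.168. MCM10, a scaffold needed to start unwinding, rose by 0.70 on the log2 scale, with SIRT4 values from 15.9 to 21.9 CPM over ctrl values of 11.8 to 11.9 CPM.

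The kinase that fires licensed origins did not pass in either subunit. CDC7, the catalytic subunit, was at 28.6, 36.1 and 34.7 CPM in ctrl and 36.9, 39.4 and 39.7 CPM in SIRT4 libraries (log2 fold change 0.22, SE 0.10). DBF4, its activator, was at 11.8, 16.1 and 11.9 CPM in ctrl and 14.7, 15.3 and 15.6 CPM in SIRT4 libraries (0.20, SE 0.14), and here the groups overlapped, with ctrl replicate 2 highest of all. The edgeR adjusted p-values of 0.167 and 0.391 stayed above the threshold in all 14 alternatives. Per kilobase of transcript CDC7 exceeded DBF4 in every library, by a ratio from 2.64 to 3.43.

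Of the 3 replicative polymerases, polymerase epsilon, which copies the leading strand, had the highest ratio of summed CPM, at 1.45 over its 3 members. A further subunit, POLE4, is not a member and is not in this sum. Its mean was 22.3 CPM in ctrl and 23.9 CPM in SIRT4 libraries, and its log2 fold change of 0.10 did not pass. POLE, its catalytic subunit, was at 86.3, 82.4 and 87.8 CPM in ctrl and 130.4, 141.3 and 137.2 CPM in SIRT4 libraries (log2 fold change 0.67, SE 0.05, edgeR adjusted p = 0.000177). POLE2, the accessory subunit, was at 6.13, 6.83 and 6.17 CPM in ctrl and 11.7, 10.3 and 10.5 CPM in SIRT4 libraries, a rise of 0.77. POLE3, a histone-fold subunit, was at 47.2, 45.4 and 44.2 CPM in ctrl and 56.5, 50.5 and 50.6 CPM in SIRT4 libraries, and its log2 fold change of 0.21 did not pass (edgeR adjusted p = 0.0838).

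Polymerase delta, which extends the lagging strand, had a ratio of summed CPM of 1.16 over its 3 members. POLD1, the catalytic subunit, was at 46.9, 41.2 and 46.9 CPM in ctrl and 58.9, 55.5 and 58.8 CPM in SIRT4 libraries, a rise of 0.36 on the log2 scale. The accessory subunit POLD2 was at 77.7, 80.7 and 84.6 CPM in ctrl and 90.7, 88.9 and 96.3 CPM in SIRT4 libraries, and POLD3 was at 35.2, 40.1 and 35.3 CPM against 38.3, 40.1 and 40.1 CPM. Only POLD1 passed among these 3. POLD2 (0.18, SE 0.06) did not overlap between groups and POLD3 (0.10, SE 0.08) did. A further subunit, POLD4, is not a member and is not in the summed CPM. Its mean was 63.4 CPM in ctrl and 54.8 CPM in SIRT4 libraries, and the groups overlapped. The log2 fold change of POLD4, -0.21, did not pass (edgeR adjusted p = 0.176). A test of the difference between the polymerases was not run.

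Polymerase alpha-primase, which makes the starting primers, rose in 3 of 4 subunits, with a ratio of summed CPM of 1.33. PRIM2, the large primase subunit, was at 19.6, 20.1 and 21.7 CPM in ctrl and 30.0, 31.5 and 29.2 CPM in SIRT4 libraries, a rise of 0.56. POLA2, the regulatory subunit, was at 41.2, 35.7 and 42.0 CPM in ctrl and 54.3, 56.6 and 50.6 CPM in SIRT4 libraries, a rise of 0.44. POLA2 shares 35.14% of its exon bases on the same strand with AP000944.2. That gene had means of 2.33 CPM in ctrl and 1.73 CPM in SIRT4 libraries and did not pass. How reads of the shared bases were assigned was not tested. The catalytic POLA1 rose by 0.37, but its edgeR adjusted p of 0.0205 became 0.0667 and 0.0607 without ctrl replicate 1 or 2 and 0.0601 and 0.0654 without SIRT4 replicate 1 or 2. PRIM1, the small primase subunit that forms the first bond of the primer, was at 16.6, 15.4 and 16.6 CPM in ctrl and 17.8, 18.2 and 19.3 CPM in SIRT4 libraries (0.18, SE 0.09) and did not pass.

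PCNA, the sliding clamp that holds polymerases on DNA, was at 74.9, 75.2 and 70.8 CPM in ctrl and 117.4, 117.1 and 110.7 CPM in SIRT4 libraries. It rose 1.56-fold (log2 fold change 0.64, SE 0.05, edgeR adjusted p = 0.000214), and per kilobase of transcript it was, with MCM7, among the 2 most abundant members in both groups. The pseudogenes PCNAP1, PCNAP3 and PCNAP4 were at 0 in all 6 libraries. Of the 5 loader subunits that open the clamp, 3 passed. RFC1, the large subunit, was at 43.2, 44.6 and 40.6 CPM in ctrl and 58.3, 62.5 and 55.8 CPM in SIRT4 libraries, a rise of 0.46. RFC4 rose by 0.47 and RFC5 by 0.31. RFC4 had an edgeR adjusted p of 0.0334, which became 0.0581 without ctrl replicate 3 and 0.0955, 0.0811 and 0.0679 without SIRT4 replicate 1, 2 or 3. RFC5 had an edgeR adjusted p of 0.0368, which lay between 0.0516 and 0.111 whichever of the 6 libraries was left out and at 0.0573 with library size only. RFC2 (0.35) had an edgeR adjusted p of 0.0697, and of 0.0278 without ctrl replicate 1. Over the 14 alternatives its adjusted p ran from 0.0276 with DESeq2 to 0.188, and it passed in 2 of them. RFC3 was at 20.2, 19.6 and 21.2 CPM in ctrl and 22.2, 22.6 and 23.9 CPM in SIRT4 libraries (0.17, SE 0.08), without overlap and without a pass.

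Of the 3 subunits of RPA, the trimer that coats single-stranded DNA, RPA1 passed. RPA1, the large DNA-binding subunit, was at 76.0, 68.3 and 73.9 CPM in ctrl and 96.3, 110.3 and 102.7 CPM in SIRT4 libraries, a rise of 0.50 (SE 0.07, edgeR adjusted p = 0.00228). RPA2, the subunit phosphorylated under replication stress, was at 44.8, 40.5 and 48.2 CPM in ctrl and 47.8, 47.1 and 44.5 CPM in SIRT4 libraries. RPA3, the smallest subunit, was at 40.3, 45.9 and 42.3 CPM in ctrl and 42.0, 39.6 and 40.8 CPM in SIRT4 libraries. Both overlapped between groups, with log2 fold changes of 0.06 (SE 0.08) and -0.07 (SE 0.07). The ratio of RPA1 to the mean of RPA2 and RPA3 per kilobase of transcript was 0.769, 0.686 and 0.703 in ctrl and 0.923, 1.09 and 1.04 in SIRT4 libraries.

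Both enzymes that finish Okazaki fragments, the short pieces of the lagging strand, rose. FEN1, the flap nuclease, was at 36.8, 37.3 and 37.2 CPM in ctrl and 58.7, 59.3 and 57.6 CPM in SIRT4 libraries (log2 fold change 0.66, SE 0.06, edgeR adjusted p = 0.00025). LIG1, the ligase that seals the nick, was at 25.1, 26.3 and 29.4 CPM in ctrl and 41.2, 39.1 and 39.4 CPM in SIRT4 libraries, a rise of 0.57. FEN1 shares 49 exon bases, 1.98% of its exons, on the same strand with FADS2, which rose by 1.22 on the log2 scale from a level above that of FEN1; how reads of those bases were assigned was not tested.

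Fork protection factors keep a paused fork intact and signal to the checkpoint. CLSPN, the claspin adaptor of the kinase CHEK1, was at 31.0, 33.1 and 31.5 CPM in ctrl and 53.1, 55.4 and 58.9 CPM in SIRT4 libraries, a rise of 0.81 (SE 0.07). TIMELESS was at 67.6, 63.4 and 73.7 CPM in ctrl and 109.4, 105.2 and 103.6 CPM in SIRT4 libraries, a rise of 0.64. Its binding partner TIPIN was at 9.21, 7.37 and 9.01 CPM in ctrl and 10.2, 8.35 and 10.9 CPM in SIRT4 libraries. The TIPIN groups overlapped and its log2 fold change of 0.20 (SE 0.15) did not pass. WDHD1, which ties polymerase alpha to the helicase, rose by 0.44, with an edgeR adjusted p of 0.0217 that became 0.0727 and 0.075 without ctrl replicate 1 or 3 and 0.0623 without SIRT4 replicate 1.

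Among the regulators of S-phase entry, both activator E2F genes rose. E2F1 was at 39.5, 38.9 and 38.0 CPM in ctrl and 68.2, 71.2 and 73.2 CPM in SIRT4 libraries, a 1.83-fold rise (log2 fold change 0.87, SE 0.06, edgeR adjusted p = 7.83e-05). E2F2 was at 7.93, 10.4 and 9.39 CPM in ctrl and 16.2, 19.0 and 17.9 CPM in SIRT4 libraries, a rise of 0.93. CCNE1 and CCNE2 encode the E cyclins that activate CDK2. CCNE1 was at 12.9, 11.8 and 11.0 CPM in ctrl and 13.0, 15.2 and 13.6 CPM in SIRT4 libraries, with SIRT4 replicate 1 just above ctrl replicate 1, and its log2 fold change of 0.23 (SE 0.11) did not pass. CCNE2, the scarcest member, rose by 0.98 (SE 0.22); its edgeR adjusted p of 0.0191 became 0.0559 without SIRT4 replicate 1 and 0.0586 without SIRT4 replicate 3. CCNE2 shares 37.05% of its exon bases with INTS8 on the opposite strand, which was higher by 0.36 on the log2 scale, and without a stated strand setting reads of the pair cannot be told apart.

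All 4 genes that copy chromatin and DNA methylation behind the fork rose. CHAF1A, the large subunit of the histone chaperone CAF-1, was at 19.8, 20.0 and 19.8 CPM in ctrl and 38.7, 39.2 and 39.2 CPM in SIRT4 libraries, among the tightest separations of the list (log2 fold change 0.97, SE 0.07, edgeR adjusted p = 8.73e-05). CHAF1B rose by 0.79. DNMT1, the maintenance DNA methyltransferase, was at 111.8, 117.4 and 124.7 CPM in ctrl and 169.4, 180.3 and 177.0 CPM in SIRT4 libraries, a rise of 0.57. UHRF1, which brings DNMT1 to newly copied DNA, was at 72.1, 55.0 and 55.2 CPM in ctrl and 87.4, 94.6 and 101.3 CPM in SIRT4 libraries, a rise of 0.64. Control replicate 1 was the highest ctrl library for UHRF1, yet below all 3 SIRT4 libraries.

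**Figure D4:**
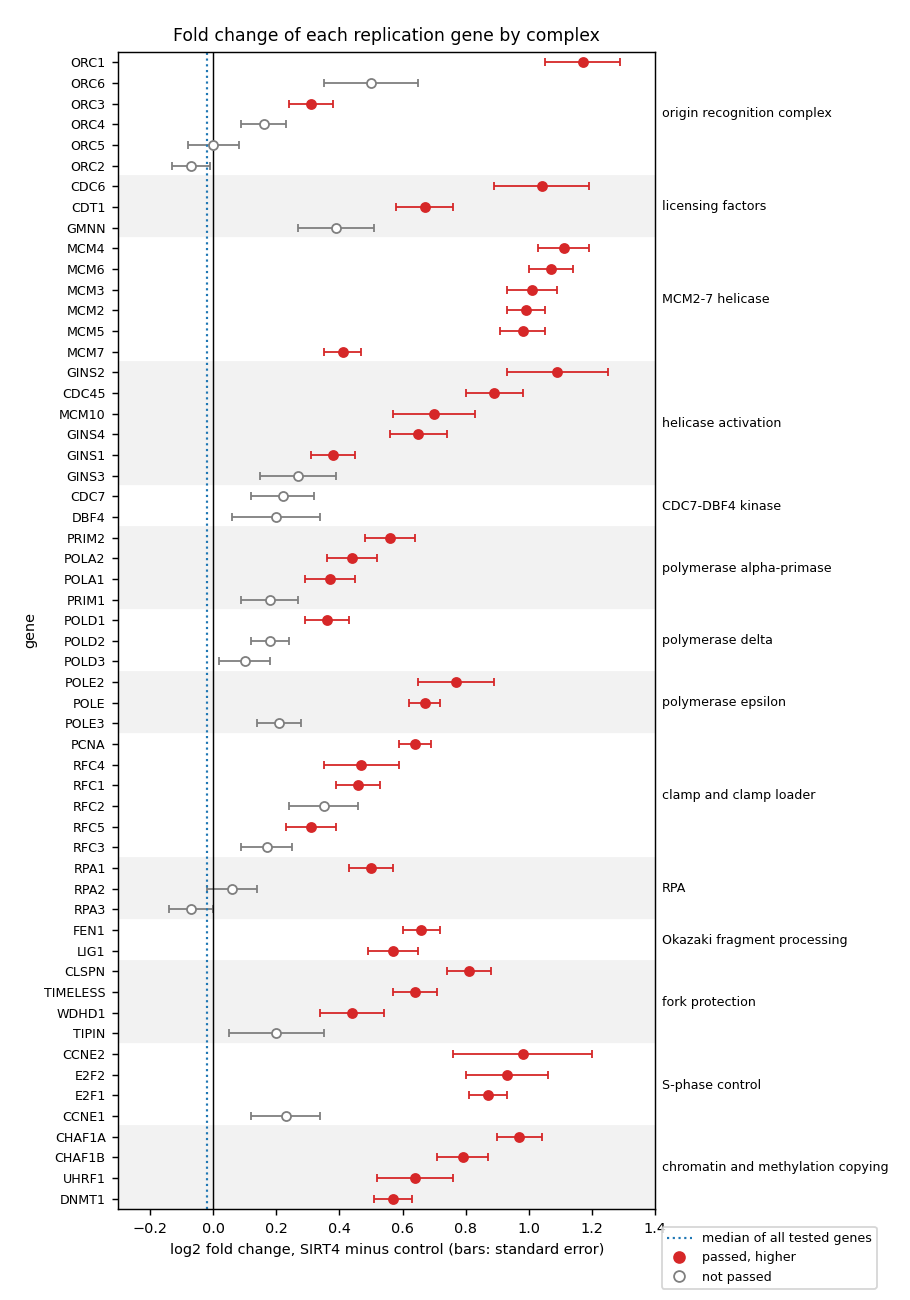
Log2 fold change of SIRT4 over ctrl for each of the 56 members, grouped by complex, with standard errors as bars; filled points passed at an adjusted p under 0.05 and open points did not. The points run from -0.07 for ORC2 and RPA3 to 1.17 for ORC1, and the dotted line marks the median of all tested genes at -0.02.

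Counted by complex, every member passed in the MCM2-7 ring (6 of 6), Okazaki fragment processing (2 of 2) and chromatin copying (4 of 4). The share was 5 of 6 for helicase activation, 3 of 4 each for polymerase alpha-primase, fork protection and S-phase control, 4 of 6 for the clamp with its loader, and 2 of 3 each for licensing factors and polymerase epsilon. It was 2 of 6 for the origin recognition complex, 1 of 3 each for polymerase delta and RPA, and 0 of 2 for CDC7-DBF4. Over the members of each complex, the ratio of mean summed CPM, SIRT4 over ctrl, was highest for the MCM2-7 ring at 1.75. It was lowest for the origin recognition complex at 1.14. The polymerase sums leave out POLD4 and POLE4, so the ranking holds for the listed members only. Of the 38 calls, 32 held under all 14 alternatives; the other 6 were ORC3, POLA1, RFC4, RFC5, WDHD1 and CCNE2. Exons of 25 members share bases with another annotated gene, at least 10% of the member's exon bases for 7 of them. These 7 were MCM2, GINS3, GINS4, POLA2, PRIM1, TIPIN and CCNE2.

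Other genes of the pathway were read from 4 lists. Of these 61 genes, 17 were higher and 4 lower, with a median log2 fold change of 0.14, where 9.38% and 7.67% of all tested genes passed in each direction. The lower count was 1 without ctrl replicate 3 and 2 without SIRT4 replicate 2. Among 24 other replication factors 8 were higher and 1 lower. TOPBP1, a scaffold of origin firing and of the checkpoint, rose from 63.6 ± 3.78 CPM to 120.5 ± 7.25 CPM (mean ± SD of 3 libraries per group, as in the following), and MCM8, a helicase outside the MCM2-7 ring, rose by 0.44 on the log2 scale. TOP1, a topoisomerase, fell by 0.23; its edgeR adjusted p of 0.0155 became 0.0522 without ctrl replicate 3 and 0.0537 and 0.0533 without SIRT4 replicate 1 or 2. In the E2F and RB family 1 of 11 was higher and 1 lower. TFDP1, the dimer partner of E2F proteins, rose from 73.2 ± 4.07 to 115.9 ± 2.30 CPM (SD, n = 3), and the repressor E2F7 fell from 49.1 ± 4.06 to 31.8 ± 3.11 CPM (SD, n = 3).

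Of 17 S-phase kinase and checkpoint genes 3 were higher and 1 lower. The CDK2-activating phosphatase CDC25A rose by 1.07 on the log2 scale and DDB1, part of a ubiquitin ligase that degrades CDT1, by 0.41. RAD9A, part of the checkpoint clamp, fell by 0.34, and its edgeR adjusted p of 0.0123 became 0.0501 without ctrl replicate 3. Histone chaperones had 5 higher and 1 lower of 9. ASF1B rose by 0.66 and RBBP4, a further CAF-1 subunit, by 0.50, while ASF1A fell by 0.35. The edgeR adjusted p of ASF1A, 0.0152, became 0.0537 without ctrl replicate 3 and 0.0601 without SIRT4 replicate 2. The G2 and M phase list had 9 higher and 1 lower of 20, with a median of 0.18, and 5 higher without ctrl replicate 1, ctrl replicate 3 or SIRT4 replicate 2. CCNB1, a mitotic cyclin, rose by 0.50 and AURKA, a mitotic kinase, by 0.44 (log2), whereas CDK1, the partner of CCNB1, fell from 108.6 ± 6.15 to 85.3 ± 5.08 CPM (SD, n = 3). Thus 67.9% of the replication members were higher, compared with 45.0% of the G2 and M phase list and 27.9% of the other pathway genes. Of all tested genes 9.38% were higher and 7.67% lower. The difference between these shares was not tested, and the lists were chosen with earlier results of these data known.

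**Figure D5:**
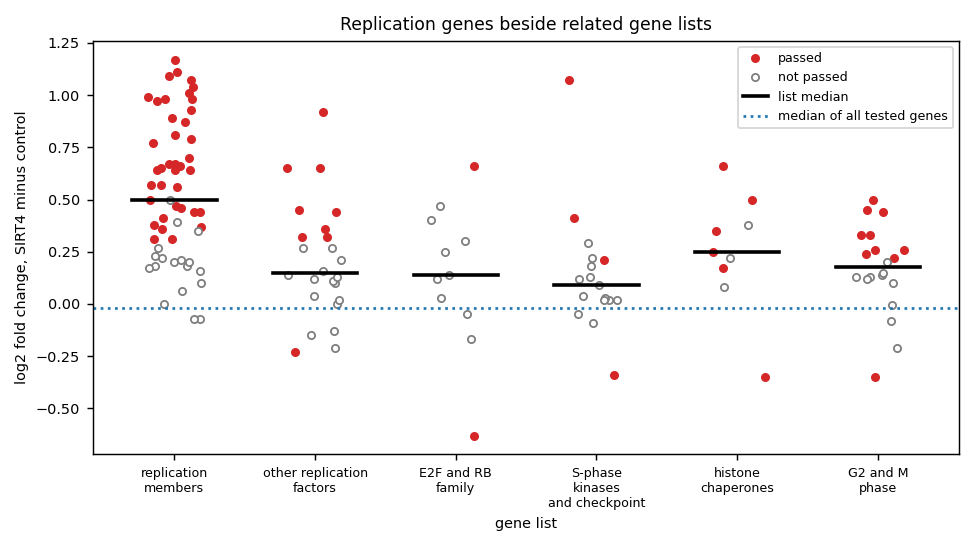
Log2 fold change of SIRT4 over ctrl for each gene of the replication members and 5 related lists, with filled points for genes that passed, open points for genes that did not and bars for list medians. The median of the members is 0.50, the medians of the other lists lie between 0.09 and 0.25, and the dotted line is the median of all tested genes at -0.02.

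Within groups the libraries were close in their median over the list but not in rank. The median deviation of the 56 members from their group mean lay between -0.012 and 0.011 on the log2 scale in the 6 libraries. Control replicate 1 held the lowest ctrl value for 28 of the 56 members and ctrl replicate 3 for 8. Control replicate 2 held the highest ctrl value for 24 members, among them ORC6, GMNN, DBF4, CDC7, RFC4 and WDHD1, and the lowest for 20, among them CCNE2, GINS2 and TIPIN.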

How the data were processed

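Gene expression was measured by RNA-seq in 3 ctrl and 3 SIRT4 libraries, from Trizol-extracted RNA with an NEBNext Ultra library kit (per the labels). The submitters' processing notes list STAR, featureCounts, Subread, DESeq2 and hg38, with neither role nor version. For the annotation and strand setting, the sources used here give nothing. The authors deposited whole numbers per Ensembl gene, treated here as estimated counts because values of 4 and 8 are overrepresented among low ones; totals were 50945991 to 65156041. These units may not be single reads.

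Symbols came from a name table (60357 of 67140 identifiers) and GENCODE release 29 (296 more), whose assembly, GRCh38, is that of hg38. In R 4.3.3, edgeR 4.0.16 (TMM, filterByExpr, robust glmQLFit, glmQLFTest, no covariate) was fitted to all 20786 tested genes, with Benjamini-Hochberg adjusted p under 0.05 as threshold. SE is the absolute log2 fold change over the square root of F. CPM used TMM-scaled library sizes, and levels per kilobase used the longest APPRIS principal transcript. Alternatives were DESeq2 1.42.0, limma-voom (3.58.1), other scalings and filters, division by 4, a replicate block and leaving out each library. Members were named by complex: all in complexes of up to 3, otherwise the 2 with the smallest adjusted p and the 1 with the largest have values per library. Of the other pathway lists, the 2 genes with the smallest adjusted p and each lower one are named. Members, lists and tests were chosen with earlier results of these data known. The procedure was tested on simulated data.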

Additional observations from a re-analysis of the deposited data

How the results depend on the processing

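Of 784 recalculated log2 fold changes of members (56 members, 14 alternatives), 738 kept their direction and side of the threshold. The 30 that no longer passed belonged to 6 genes and the 9 that newly passed to 3 genes (ORC6, GMNN and RFC2). Near 0, ORC5 changed sign to -0.03 with library size only, -0.0041 with the stricter filter and -0.007 after division by 4, and ranged from -0.01 to 0.02 when 1 library was left out; RPA2 ranged from -0.0016 to 0.13; neither passed. The members called higher numbered 33 to 41 over all alternatives, and none was lower in any. Among all tested genes, 1312 to 1570 were higher when 1 library was left out, against 1950 with all libraries. Leaving out 1 library gave 978 to 1204 lower genes of all tested (1595 with all libraries; lowest with ctrl replicate 3 omitted, and 1021 or 1058 with SIRT4 replicate 2 or 3 omitted), 1 to 4 lower among the other pathway genes and 5 to 7 higher in the G2 and M phase list.

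Deviations of same-numbered libraries from their group means correlated at 0.00959, 0.00322 and -0.018 across genes, so they shared no visible pattern. Whether the libraries were handled in pairs cannot be told from this, and the labels do not say. With the replicate block 33 members were higher; ORC3, POLA1, RFC4, RFC5 and WDHD1 no longer passed. The unit behind the estimated counts is unknown, and each group has 3 libraries.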
